A study of Mus musculus with 4 samples.

Results

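Listed cytosines in 34 very long genes, most of them genes of neurons and 2 of them muscle membrane genes, were compared between wild-type and Hdac6-knockout LSK cells. LSK cells are the lineage-negative, Sca-1-high, c-Kit-positive cells of mouse bone marrow, the fraction that holds the blood stem cells and early progenitors. The groups were WT (wild type) and HDAC6 KO (knockout), the latter lacking the cytoplasmic lysine deacetylase HDAC6, each with 1 whole-genome bisulfite library and 1 oxidative bisulfite library, 4 libraries in all. The sources used here give no age, sex, strain, deleted allele or number of animals per library. In both genotypes the title of the bisulfite library holds the number 1 and the mark 5mc. That of the oxidative library holds the number 2 and the mark 5hmc. Whether both assays of a genotype used the same sample is not stated. The authors' deposited comparison holds 53206 CpG positions for 5-methylcytosine (5mC) and 71864 for 5-hydroxymethylcytosine (5hmC), each with a wild-type level, a knockout level, a p-value and a q-value. A site was taken as belonging to a gene when it lay inside its GRCm38 gene body or within 2 kb of either end. By that rule the 34 genes held 487 5mC sites and 492 5hmC sites, 0.915% and 0.685% of the respective tables. With 1 library per genotype and assay, no difference below has a replicate check, and no test between genotypes was made.

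The 34 genes are long because of their introns, and most encode proteins of the neuronal surface and the synapse. Most such genes are typically silent in blood cells, lie in gene-poor and late-replicating parts of chromosomes, and several of them overlap common fragile sites. In mammalian cells 5mC sits mostly at CpG dinucleotides and covers most of the genome outside active promoters and enhancers. The TET enzymes turn 5mC into 5hmC, a mark that is most abundant in the brain and in the bodies of active genes. The tables hold cytosine levels and no expression, so neither the silence of these genes nor the identity of the cells could be checked against marker genes.

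All 34 genes held at least 1 listed site of each mark, which for genes of this size is close to the background. Of 21883 protein-coding genes of any length, 47.1% had at least 1 site for 5mC and 53.7% for 5hmC. Among the 194 other protein-coding genes of at least 500 kb, the shares were 96.4% and 96.9%. The members ran from 370.7 kb (Cntn6) to 2390 kb (Dmd), with a median of 1135 kb and a summed length of 43178.3 kb, and 32 of the 34 reached 500 kb. They make up 4.11% of the summed length of protein-coding genes.

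Per length, the 34 genes held fewer listed sites than other long genes, more so for 5hmC. Pooled over their length they carried 1.12 5mC sites and 1.14 5hmC sites per 100 kb. The 194 other long genes carried 1.39 and 1.67 per 100 kb. There a site in overlapping genes counted once per gene, giving 2096 5mC and 2511 5hmC counts from 1994 and 2230 distinct sites. No member site was counted more than once. The ratio of densities was 0.809 for 5mC (95% interval 0.731 to 0.893) and 0.682 for 5hmC (95% interval 0.618 to 0.751). These intervals, like the exact binomial intervals on shares below, cover counting error only and take sites as independent, which neighbouring sites of a gene are not. Among sites with p under 0.001 in the authors' deposited table the 5mC ratio was 1.18, and 0.870 without a run of sites in Dmd described further on. Listed sites became denser as genes became shorter, with 2.13 5mC and 3.10 5hmC sites per 100 kb in genes of 100 to 500 kb and 3.04 and 4.99 in genes under 100 kb. Across the 34 genes density also tended to fall with length, with a Spearman rho of -0.42 for 5mC and -0.27 for 5hmC. The members and the other long genes were not matched for length, with 43178.3 kb in 34 genes and 149974.3 kb in 194. The part of length in the ratios was not tested. CpG content and read coverage per gene were not analysed here. A lower density of differences and a lower density of measurable CpGs thus cannot be told apart.

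Among the 34 genes the density varied widely, and a few genes accounted for much of it. Rbfox3, which encodes the splicing factor known as the neuronal nuclear antigen NeuN, had the highest densities of both marks, with 9.16 5mC sites per 100 kb (39 sites) and 16.2 5hmC sites per 100 kb (69 sites). Rbfox3 is 421.8 kb long, and among the 2200 other genes of 100 to 500 kb, 39 (1.77%) were denser in 5mC sites and 36 (1.64%) in 5hmC sites. Csmd2, a large transmembrane protein gene with CUB and sushi domains, followed with 4.79 and 6.49 sites per 100 kb (28 and 38 sites). Together Rbfox3 and Csmd2 make up 2.32% of the summed length but held 67 of the 487 5mC sites (13.8%) and 107 of the 492 5hmC sites (21.7%). At the other end, Dlg2, which encodes the synaptic scaffold PSD-93, had the fewest 5mC sites per length, 0.405 per 100 kb, and Dmd, the dystrophin gene, the fewest 5hmC sites, 0.167 per 100 kb. Of the 34 genes, 7 were denser in 5mC sites, and 8 in 5hmC sites, than the pooled other long genes. These were Rbfox3, Csmd2, Grid1, Ptprt, Ntm, Dlgap1 and Wwox for both marks and Rbfox1 for 5hmC alone. Most of the other long genes also lay below their pooled values, with medians of 1.18 and 1.23 per 100 kb (members 0.995 and 0.738). Of those 194 genes, 49 were denser in 5mC sites than Dlgap1 (1.75 per 100 kb). For 5hmC, 62 were denser than Rbfox1 (1.76 per 100 kb).

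**Figure D1:**
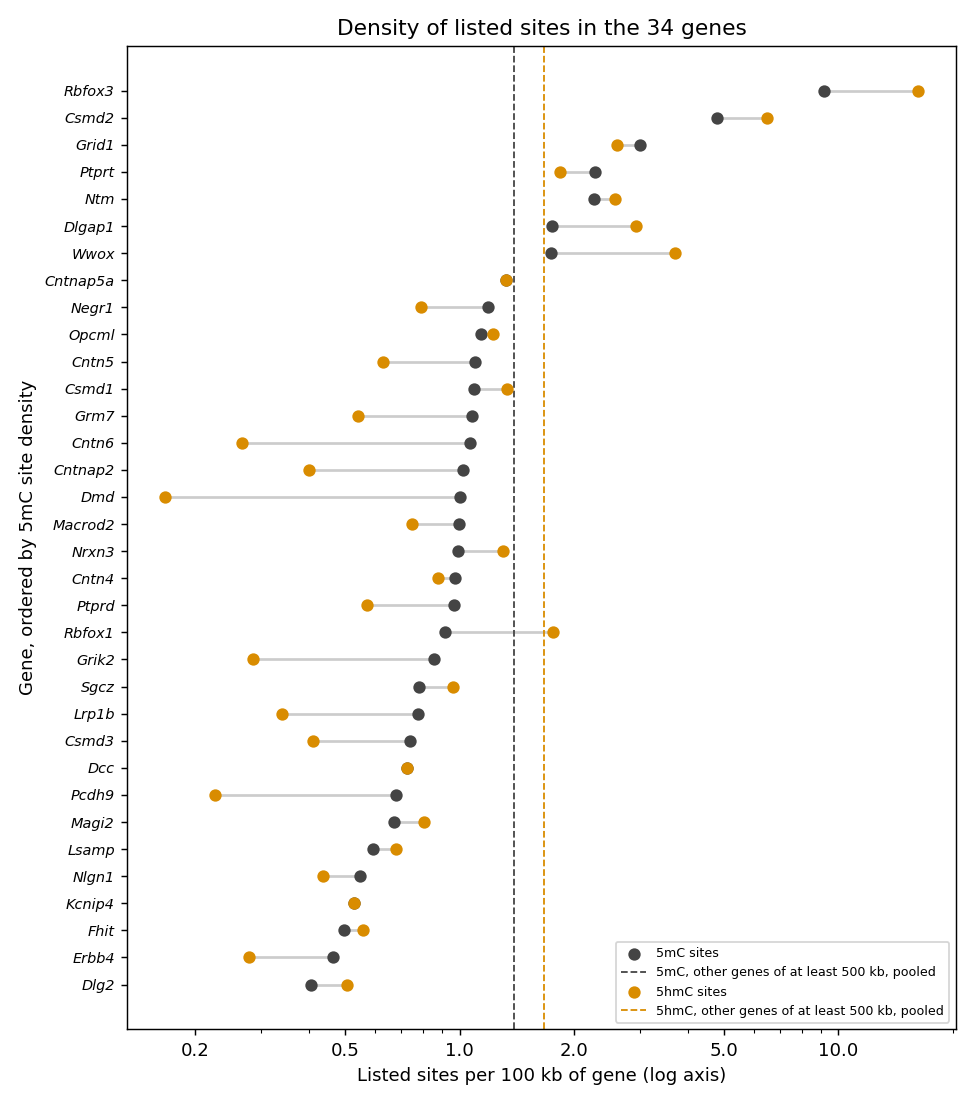
Listed 5mC (grey) and 5hmC (orange) sites per 100 kb of gene in each of the 34 genes, on a log axis, ordered by 5mC density, with dashed lines at the pooled densities of the 194 other protein-coding genes of at least 500 kb. Each dot is the count over a whole gene and has no error bar, since there are no replicates; the 5hmC dot covers the 5mC dot in Cntnap5a, Dcc and Kcnip4. Rbfox3 and Csmd2 stand to the right of all the other genes, and Dmd has the lowest 5hmC density.

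Genes dense in one mark tended to be dense in the other, with a Spearman rho of 0.67 across the 34 genes and 0.61 across 32 without Rbfox3 and Csmd2. This is a description across genes that share libraries, coverage and CpG content, and genes are not independent replicates. The balance of the marks nevertheless varied. More 5hmC than 5mC sites were listed in 14 genes, fewer in 17 and equal numbers in 3. Wwox (34 5hmC against 16 5mC sites), Rbfox1 (27 against 14) and Rbfox3 (69 against 39) leaned most to 5hmC. Dmd (4 against 24), Cntn6 (1 against 4), Pcdh9 (2 against 6), Grik2 (2 against 6) and Cntnap2 (9 against 23) leaned most to 5mC. In Dmd this rests on a single run of 19 5mC sites, without which it had 4 5hmC against 5 5mC sites.

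By direction, the shares over all listed sites of the members were close to those of the whole tables. The 487 5mC sites comprised 192 that were higher in the knockout (39.4%, 95% interval 35.1 to 43.9%) and 295 that were lower, where all listed 5mC sites were higher in 40.3% and lower in 59.7%. The 492 5hmC sites comprised 314 higher ones (63.8%, 95% interval 59.4 to 68.1%) and 178 lower ones, where all listed 5hmC sites were higher in 64.4% and lower in 35.6%. Among sites with p under 0.001 in the authors' deposited table the 5mC direction turned, with 38 of 65 member sites (58.5%) higher beside 42.8% of all such sites, and 21 of 48 (43.8%) without a run of sites in Dmd. Gene by gene, 26 of 34 had more lower than higher 5mC sites, 7 had more higher than lower, and 1 was evenly split. For 5hmC, 26 of 34 had more higher than lower sites, 2 had fewer and 6 were evenly split. Both tendencies met in 21 genes. Such counts for genes outside the members are not given here. The same majorities hold over all listed sites. In the other genes of at least 500 kb, 37.3% of 5mC and 67.5% of 5hmC sites were higher. The gene counts thus mark no trait particular to the members.

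In levels, the listed 5mC sites of the members were mostly highly methylated in wild type. The median wild-type level over the 487 sites was 87.5% and the median knockout level 69.0%, against 84.3% and 66.7% over all listed 5mC sites. At the 295 lower sites the medians were 98.8% in WT and 50% in KO, and 147 of them were at exactly 100% in WT. At the 192 higher sites the medians were 61.3% and 97.5%, and 84 of them reached exactly 100% in KO. For 5hmC, the wild-type level was exactly 0% at 267 of the 314 higher sites, where the median knockout level was 36.4%. The knockout was at exactly 0% at 160 of the 178 lower sites, where the median wild-type level was 27.8%. For 5mC, 46.1% of all lower sites were at 100% in WT (49.8% in the members) and 35.8% of all higher sites at 100% in KO (43.8%). For 5hmC, 81.3% of all higher sites were at 0% in WT (85.0%) and 84.2% of all lower sites at 0% in KO (89.9%). Differences of at least 50 points were found at 110 of the 295 lower 5mC sites (37.3%, beside 28.9% of all lower sites) and 46 of the 192 higher ones (24.0%, beside 20.3%). Coverage is not stated, so no interval can be given for a single level, and levels of exactly 0% or 100% can rest on few reads.

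**Figure D2:**
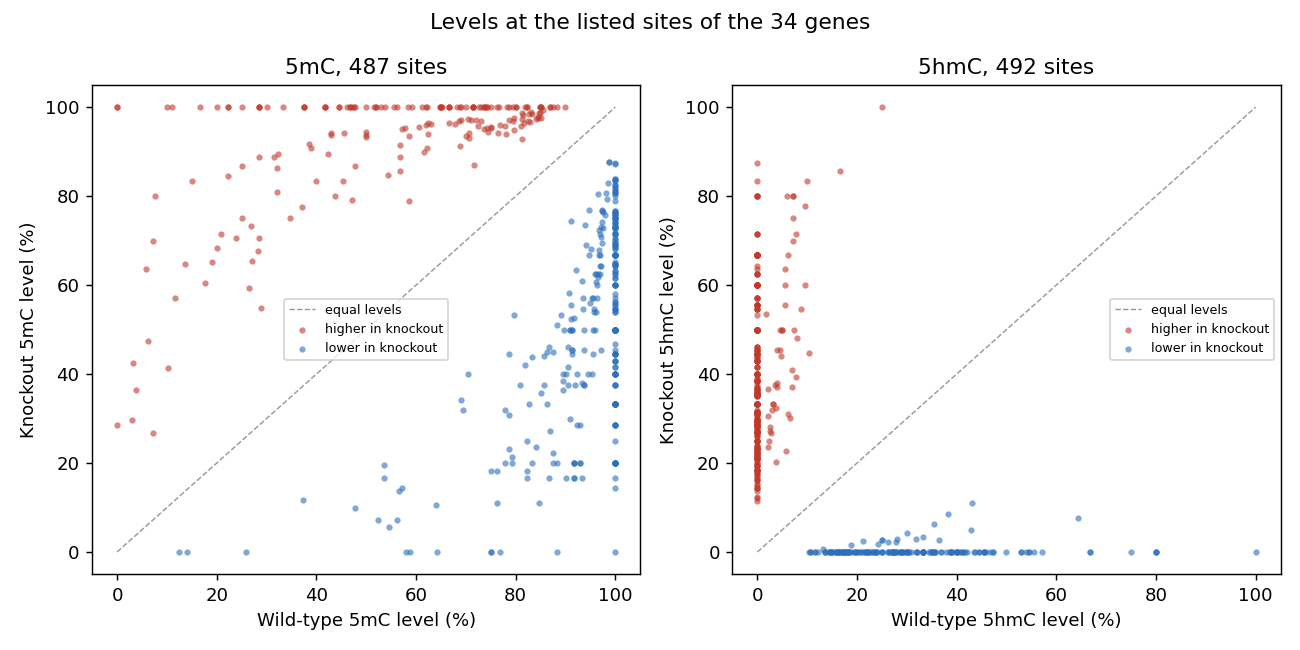
Knockout against wild-type level (%) at each of the 487 5mC sites (left) and 492 5hmC sites (right) of the 34 genes, red where the knockout is higher and blue where it is lower, with a dashed line at equal levels. Lower 5mC sites crowd at the right edge, at or near 100% in WT, and most 5hmC sites lie on an axis, at 0% in one genotype.

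The largest group, 12 genes of cell adhesion, held 147 5mC and 126 5hmC sites, or 1.03 and 0.88 per 100 kb. It includes the IgLON genes Lsamp, Opcml, Ntm and Negr1, which encode GPI-anchored adhesion proteins of neurons, the contactins Cntn4, Cntn5 and Cntn6, the contactin-associated genes Cntnap2 and Cntnap5a, the protocadherin Pcdh9, the presynaptic neurexin Nrxn3 and its postsynaptic partner Nlgn1. In this group 50 of 147 5mC sites (95% interval 26.4 to 42.3%) and 78 of 126 5hmC sites (61.9%, 95% interval 52.8 to 70.4%) were higher in the knockout. Opcml and Ntm are neighbours on chromosome 9, 69.3 kb apart, yet Ntm carried 2.26 5mC and 2.57 5hmC sites per 100 kb and Opcml 1.14 and 1.23. At Ntm position 29025907 of chromosome 9 the authors' deposited table gave 100% 5mC in WT and 14.3% in KO (p = 5.2e-05, q = 0.826), and 0% and 71.4% 5hmC. Cntnap2, whose product organises potassium channels beside the node of Ranvier, held 23 5mC sites, 17 of them lower, and 9 5hmC sites, 8 of them higher. Its 5hmC site on chromosome 6 at position 46154039, near the middle of the gene, was at 0% in WT and 29.1% in KO (p = 2.45e-07, q = 0.00287 in the authors' deposited table). Ntm also held 5mC sites at 100% in WT and 50% in KO (position 29165073) and at 84% and 23.5% (position 29272008), and a 5hmC site at 54.5% and 0% (position 29578175), in the authors' deposited table. Its neighbour Opcml had 29.0% and 0% 5hmC at position 28542255, and Lsamp had 28.9% and 0% 5hmC at position 41199911 of chromosome 16, in the authors' deposited table. Going the other way, Cntn4 had 0% and 45% 5hmC at position 105837644 of chromosome 6 there. Pcdh9 held only 6 5mC and 2 5hmC sites, and its 5mC level at position 93444825 of chromosome 14 was 100% in WT and 28.6% in KO in the authors' deposited table. Cntnap5a held a run of 4 5mC sites within 37 bp of chromosome 1 starting at position 116065750, at 22.2 to 37.5% in WT and 100% in KO, with q of 1 in the authors' deposited table.

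The 9 receptors and channel partners held 122 5mC sites (1.09 per 100 kb) and 85 5hmC sites (0.759 per 100 kb). Of these, 49 of the 5mC sites (40.2%) and 59 of the 5hmC sites (69.4%, 95% interval 58.5 to 78.9%) were higher in the knockout. Ptprt, a receptor-type tyrosine phosphatase gene, had 26 5mC and 21 5hmC sites, and 19 of the 21 5hmC sites were higher (95% interval 69.6 to 98.8%). Ptprd, a related phosphatase that acts as a presynaptic organiser, had 15 of 22 5mC sites higher, the largest share among members with more than 12 5mC sites apart from Dmd. At Ptprt position 161683672 of chromosome 2 the authors' deposited table gave 76.9% and 0% 5mC, and 0% and 83.3% 5hmC, in wild type and knockout. Another Ptprt site, at position 161555516, had 5mC of 100% and 46.7%, and Ptprd position 78146546 of chromosome 4 had 5mC of 88.2% and 0%, in the authors' deposited table. Grm7, a presynaptic glutamate receptor gene, held the site with the smallest p among the lower 5mC sites, at 100% in WT and 0% in KO on chromosome 6 at position 111321608 (in the authors' deposited table, p = 5.14e-05 and q = 0.819). Grid1, the gene of a delta-type glutamate receptor, carried 3.00 5mC and 2.61 5hmC sites per 100 kb. Its 4 neighbouring 5hmC sites within 362 bp, from position 35433137 of chromosome 14, were all lower, at 10.3 to 13.1% in WT and at most 0.74% in KO (smallest p = 4.88e-05 in the authors' deposited table). Lrp1b, an endocytic receptor gene, had 2.08% and 36.7% 5hmC at position 41216062 of chromosome 2 in the authors' deposited table. Erbb4, the neuregulin receptor gene, had 5 5mC sites, all lower. Dcc, the netrin receptor gene, had 7 of 8 lower. Erbb4 (3), Grik2 (2), Grm7 (5), Kcnip4 (6) and Lrp1b (7) held few 5hmC sites for their length.

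Synaptic scaffold genes held 33 5mC and 47 5hmC sites, and 14 (42.4%) and 33 (70.2%, 95% interval 55.1 to 82.7%) of these were higher. All 10 5hmC sites of Dlg2 were higher in the knockout (95% interval 69.2 to 100%), a gene named here after its values were seen. The Dlg2 site with the smallest p, at position 90573506 of chromosome 7, was at 0% in WT and 36.8% in KO (in the authors' deposited table, p = 2.95e-05 and q = 0.159). Dlgap1, whose product binds PSD-95, carried 2.92 5hmC sites per 100 kb and Magi2, another scaffold gene, 0.806. Dlgap1 position 70150114 of chromosome 17 was at 18.6% 5hmC in WT and 0% in KO in the authors' deposited table, the reverse of most sites of that group. The CUB and sushi genes held 55 5mC and 65 5hmC sites, most of them in Csmd2 (28 and 38) and Csmd1 (18 and 22), with 20 (36.4%) and 46 (70.8%, 95% interval 58.2 to 81.4%) higher. Csmd2 held the 5hmC site with the smallest q of all members. On chromosome 4 at position 128504758 it was at 1.82% in WT and 53.5% in KO (p = 1.1e-10, q = 2.1e-06 in the authors' deposited table). Csmd2 also held the reverse, with 24.1% and 1.75% 5hmC at position 128316235, and a lower 5mC site with 88.4% and 51.0% at position 128565147, in the authors' deposited table. In Csmd1, on chromosome 8, 5hmC was 0% and 41.7% at position 16849819 and 35% and 0% at position 16430218 in the authors' deposited table. Opposite 5hmC differences thus stood within 1 gene in both Csmd1 and Csmd2, as they did in every member except Cntn6 and Dlg2.

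The splicing factor genes Rbfox1 and Rbfox3 held 53 5mC and 96 5hmC sites. Their 5hmC sites were higher in 55 of 96 cases (57.3%, 95% interval 46.8 to 67.3%), and their 5mC sites in 22 of 53 (41.5%). Within Rbfox1, 5hmC was 39.4% in WT and 0% in KO at position 7017442, and 19.5% and 0% at position 7027403 of chromosome 16 (in the authors' deposited table, q = 0.345 and q = 0.27). In Rbfox3 the site with the smallest 5hmC p lay at position 118723421 of chromosome 11, at 0% in WT and 37.0% in KO (q = 0.276 in the authors' deposited table). At position 118908596 the levels were 0% and 22.1% 5hmC, at position 118688739 27.7% and 0% 5hmC, and at position 118764732 5mC was 93.5% and 54.5%, in the authors' deposited table. Rbfox3 thus held 5hmC differences in both directions, 40 sites higher and 29 lower. None of these levels has an error, since there are no replicates.

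Fhit, Wwox and Macrod2, broadly expressed genes known for spanning fragile or deletion-prone regions, held 44 5mC and 58 5hmC sites. Of the 5mC sites, 12 (27.3%, 95% interval 15.0 to 42.8%) were higher, an interval that still holds the 40.3% of the whole table. Of the 5hmC sites, 34 (58.6%) were higher. They did not share a density. Wwox, an oxidoreductase gene, carried 3.71 5hmC sites per 100 kb and Fhit, a diadenosine triphosphate hydrolase gene, 0.557. Macrod2, a hydrolase gene for ADP-ribose, had 13 of 15 5hmC sites higher and 15 of 20 5mC sites lower. Its 3 5hmC sites within 30 bp from position 140853978 of chromosome 2 were at 0 to 7.69% in WT and 37.0 to 39.3% in KO, and its 5mC site at position 141857437 at 100% and 41.7%, in the authors' deposited table. At Wwox position 115213215 of chromosome 8 the authors' deposited table gave 0% and 64.3% 5hmC (p = 9.93e-05, q = 0.359).

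**Figure D3:**
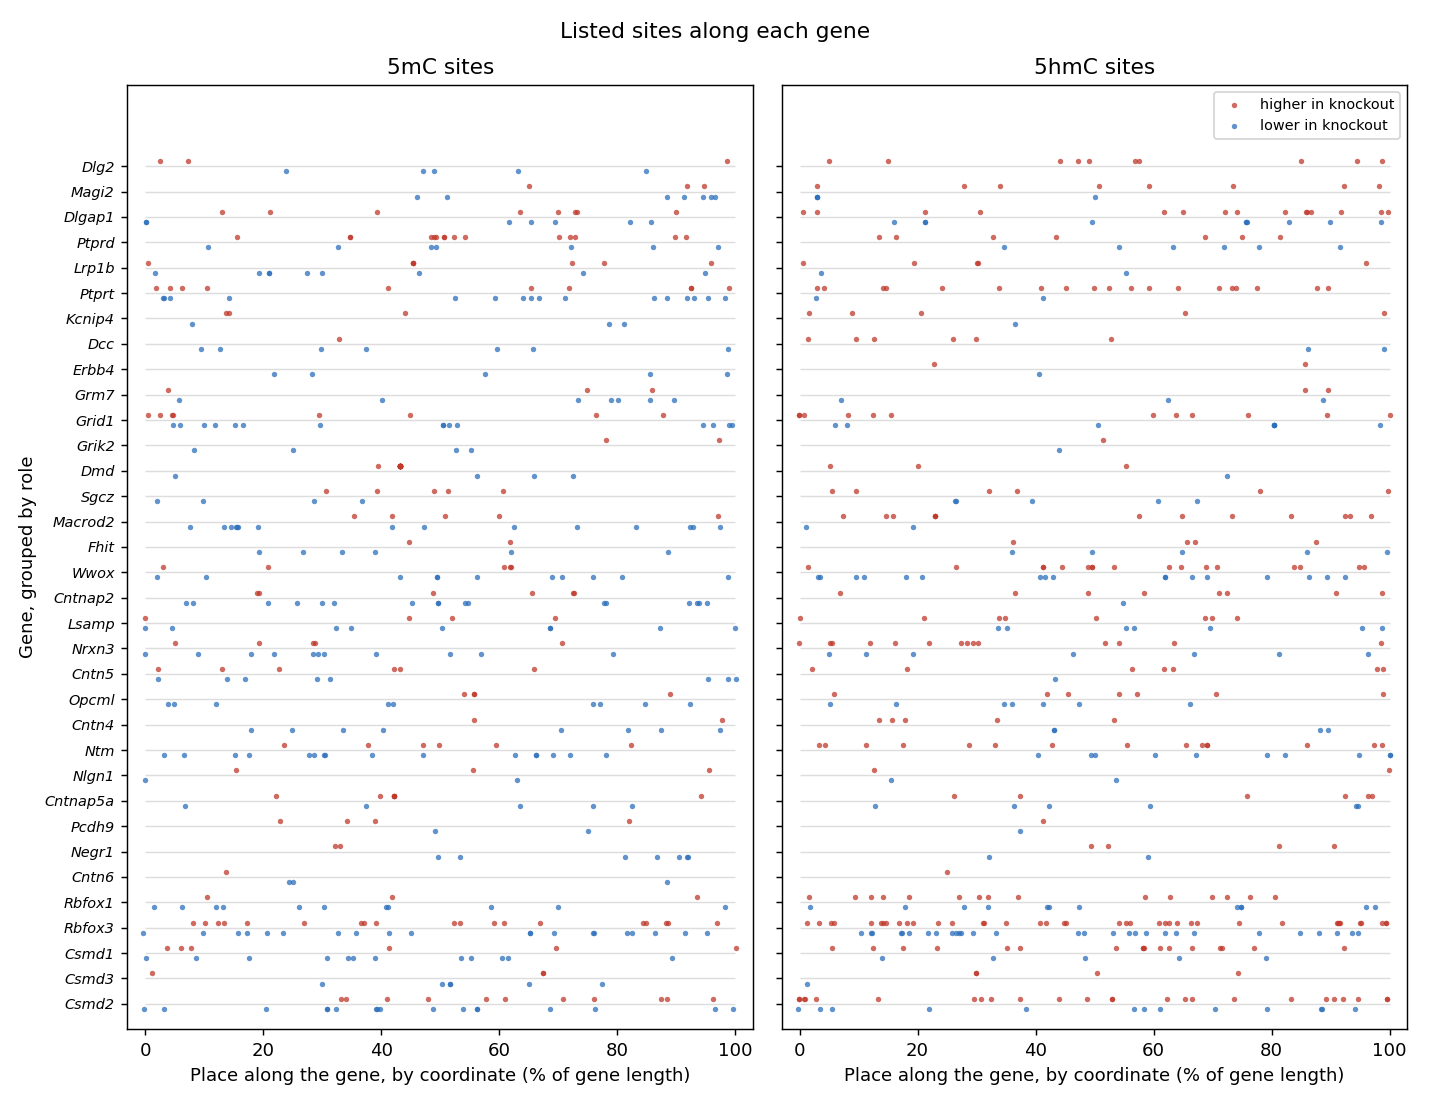
Place of each listed 5mC site (left) and 5hmC site (right) along its gene, as percent of gene length by increasing coordinate, for the 34 genes grouped by role, with red dots above the line for sites higher in the knockout and blue dots below it for lower ones. Sites are scattered over the whole length of most genes; the run of 19 5mC sites in Dmd overlaps in a single spot near 43% of its length.

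Small q-values were rare among the members and crowded in 1 place. Among the 487 5mC sites of the members, 8 (1.64%) had q under 0.05 in the authors' deposited table, beside 0.175% of all listed 5mC sites, and 2 of the 492 5hmC sites (0.407%), beside 1.08% of all listed 5hmC sites. All 10 were higher in the knockout. Over the whole tables, 36.6% of the 93 5mC sites and 60.6% of the 779 5hmC sites with q under 0.05 were higher. Those higher sites made up 0.0639% of all listed 5mC sites and 0.657% of all listed 5hmC sites. Of the 8 5mC sites, 7 lay in a single run inside Dmd and the other in Lrp1b, of the LDL receptor family. Outside the runs in Dmd and Lrp1b and the Csmd2 and Cntnap2 sites named above, the smallest q of any member site in the authors' deposited table was 0.159. Without the Dmd run, 1 of 468 5mC sites had q under 0.05. The q was 1 at 465 of the members' 5mC sites and 445 of their 5hmC sites.

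The run in Dmd consisted of 19 5mC sites within 268 bp on chromosome X from position 83847959 to 83848226, 43.2% of the way along the gene. Dystrophin links the actin skeleton of muscle fibres to the membrane, and shorter products of the gene are made in brain and other tissues. In the authors' deposited table, wild-type levels at the 19 sites ran from 68.7% to 85.5% with a median of 81.0%, and knockout levels from 94.3% to 99.3% with a median of 96.8%. The ranges did not overlap, and every site of the run was higher in the knockout, by 13.2 to 28.2 points. The site with the smallest p, at position 83848199, was at 81.3% in WT and 98.8% in KO (p = 4.18e-10, q = 2.22e-05 in the authors' deposited table). Of the 18 steps between neighbouring sites, 16 were of 9 bp and 17 were multiples of 9 bp. The 3 listed 5mC sites of Lrp1b at chromosome 2 positions 41528625 to 41528647 were also evenly spaced, 11 bp apart. There the levels were 70.7%, 62.1% and 56.9% in WT and 94.2%, 90.9% and 91.4% in KO (smallest q = 0.0456 in the authors' deposited table). Neighbouring CpGs of a run can lie on the same reads, so the 19 sites are not 19 independent observations. Whether the evenly spaced CpGs lie in repeated sequence, and what part that has in the levels, was not tested.

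**Figure D4:**
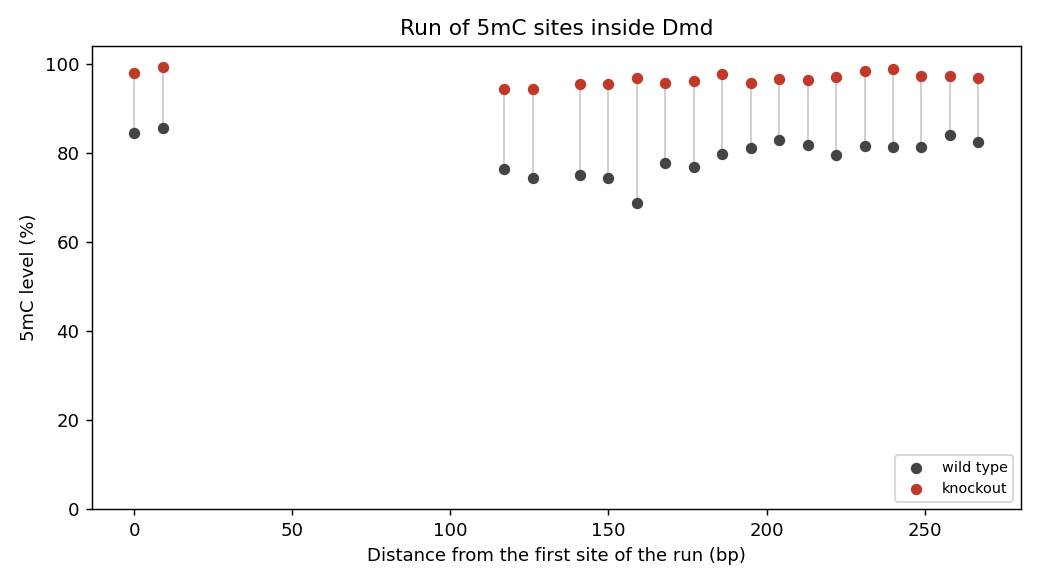
5mC level (%) in wild type (grey) and knockout (red) at the 19 sites of the run inside Dmd, against distance in bp from its first site, with a line joining both levels of a site and no error bars, since there are no replicates. Every knockout level lies above every wild-type level, and most sites follow each other at steps of 9 bp.

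Outside this run Dmd was sparse. Its other 5 5mC sites (0.209 per 100 kb) were lower in 4 cases and had q of 1, and its 5hmC sites numbered 4. For comparison, the 10 other X-linked genes of at least 500 kb pooled to 0.246 5mC and 0.0862 5hmC sites per 100 kb. Dmd lies 74.9 Mb from Hdac6 and is the only X-linked gene among the 34. Sex is not given, and the part of X-linked copy number in these densities was not tested. With the run, 20 of 24 5mC sites of Dmd were higher (95% interval 62.6 to 95.3%). Sgcz, the other muscle membrane gene, which encodes zeta-sarcoglycan of the complex that dystrophin anchors, had 5 of 9 5mC and 6 of 11 5hmC sites higher.

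At 91 positions in 28 of the genes both marks were listed, and at all 91 they differed in opposite directions, as they did at 12594 of the 12608 positions in both tables over the whole genome. At 65 positions 5mC was lower and 5hmC higher in the knockout, and at 26 the reverse held. The 65 are 71.4% of the 91 (95% interval 61.0 to 80.4%), beside 71.5% of all 12608 positions in both tables. The sum of both levels had medians of 94.4% in WT and 94.7% in KO. The difference of the sums was within 10 points at 75 of the 91 positions (82.4%, beside 84.0% over all positions in both tables), with quartiles of -3.92 and 4.95 points. 5hmC is commonly estimated as a bisulfite level minus an oxidative bisulfite level, and the sources used here do not name the libraries behind each level. Levels that share a library are not independent measurements, so an exchange of marks in the cells and shared error between the levels cannot be told apart. Sums reached 104.9% in WT and 108.6% in KO.

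Ptprt and Rbfox3 held the most positions listed for both marks, 8 each, followed by Csmd2 and Nrxn3 with 6 each. Fhit, Grid1, Grik2, Kcnip4, Magi2 and Pcdh9 held none. At Erbb4 position 68953324 of chromosome 1 the authors' deposited table gave 100% 5mC and 0% 5hmC in WT, and 44.4% and 55.6% in KO. At Csmd3 position 47943493 of chromosome 15 it gave 75% 5mC and 0% 5hmC in WT against 18.2% and 87.5% in KO, which sum to 75% and 106%. The reverse held at Cntnap5a position 116065786 of chromosome 1, with 22.2% 5mC and 66.7% 5hmC in WT and 100% and 0% in KO (the authors' deposited table). As a share of the members' 5mC sites the 91 positions were 18.7% (95% interval 15.3 to 22.4%), beside 23.7% of all listed 5mC sites. Without the Dmd run the share was 19.4% (95% interval 15.9 to 23.3%). That interval lay below the whole table's share but held the 23.1% of the other genes of at least 500 kb. As a share of the members' 5hmC sites the 91 positions were 18.5%, beside 17.5% of all listed 5hmC sites. In the other genes of at least 500 kb that share was 20.6%.

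**Figure D5:**
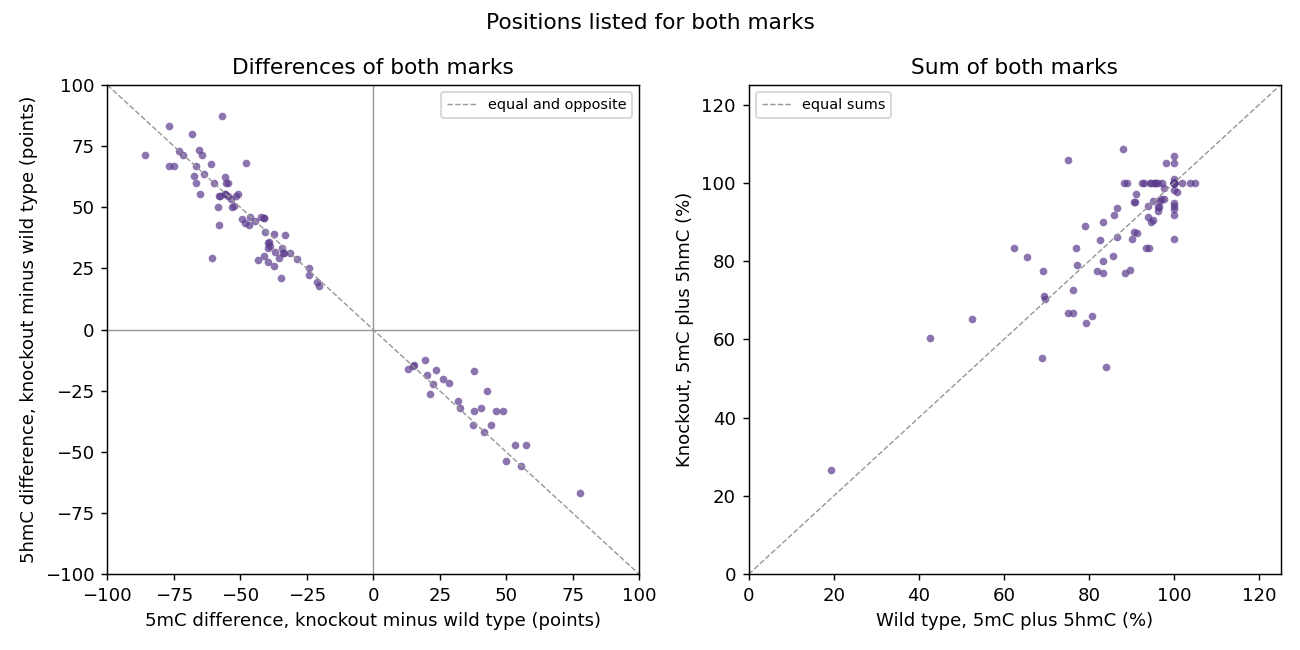
The 91 positions listed for both marks, with the 5hmC against the 5mC difference in percentage points (left) and the sum of both levels in the knockout against that in wild type in percent (right); each point is 1 position, and dashed lines mark equal and opposite differences (left) and equal sums (right). All points on the left lie in the 2 quadrants of opposite direction, and 75 of the 91 sums differ by at most 10 points.

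Sites lay almost wholly in the depth of the genes. Only 11 5mC and 12 5hmC sites (2.26% and 2.44%) were within 2 kb of a gene end, in 8 and 7 genes. Several of the 5hmC ones lay in the dense members Csmd2 and Grid1. Per length the ends were nevertheless denser, with 4.04 5mC and 4.41 5hmC sites per 100 kb near ends against 1.11 and 1.12 deeper inside. These densities near ends rest on those few sites and have no interval. Other genes of at least 500 kb had 2.90 and 3.09 near ends and 1.37 and 1.65 deeper inside. Of the 11 5mC sites near ends 9 were lower, and of the 12 5hmC sites 9 were higher. Wild-type 5mC was 64.7% in the median at the 11 end sites and 88.3% at the 476 deeper ones. The 5hmC end sites with the smallest p were Grid1 position 35583510 of chromosome 14 (0% and 63.6%, p = 0.000686), Nrxn3 position 88722304 of chromosome 12 (0% and 54.5%, p = 0.000778) and Csmd2 position 127985547 of chromosome 4 (0% and 35.3%, p = 0.000779), with q of 0.971, 1 and 1 in the authors' deposited table. At the Nrxn3 position, 397 bp outside the gene body, 5mC was 76.2% and 18.2% in the authors' deposited table. A few sites also lay inside a second annotated gene nested in or overlapping the member, 18 for 5mC and 20 for 5hmC.

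RefSeq promoter windows of 300 bases (250 before and 50 after an annotated start, GRCm38.p6) were available for 24 of the 34 genes, 43 windows in all. Listed sites fell in 1 window for 5mC (Lsamp) and in 2 overlapping windows for 5hmC (Cntn4). Over all 32851 windows, sites for 5mC fell in 1.21% and sites for 5hmC in 2.23%. The member windows held a median of 10 CpGs, from 1 to 46, against a median of 7 over all windows, and Ptprt, with 46, had no listed site within 2 kb of its start. Both windows are shown because they hold listed sites. They are written 5′ to 3′ on the plus strand in lower case, with the listed CpGs in capitals. The Lsamp window is chr16:39984114-39984413 and that of an internal start of Cntn4 is chr6:106118692-106118991; each holds 12 CpGs.
Lsamp: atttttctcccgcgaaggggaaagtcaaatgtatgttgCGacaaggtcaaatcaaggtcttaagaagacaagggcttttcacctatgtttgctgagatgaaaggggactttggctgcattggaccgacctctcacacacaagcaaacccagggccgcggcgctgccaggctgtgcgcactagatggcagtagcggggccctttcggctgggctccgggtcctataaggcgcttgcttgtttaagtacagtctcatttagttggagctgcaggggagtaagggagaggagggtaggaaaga
Cntn4: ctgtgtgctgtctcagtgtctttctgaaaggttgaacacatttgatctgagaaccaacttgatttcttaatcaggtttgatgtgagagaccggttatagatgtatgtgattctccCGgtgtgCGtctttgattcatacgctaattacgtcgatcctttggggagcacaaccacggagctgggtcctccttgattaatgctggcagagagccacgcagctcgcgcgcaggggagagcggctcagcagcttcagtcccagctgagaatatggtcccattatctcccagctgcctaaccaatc
The capital CpG of Lsamp, 212 bp before the annotated start, was at 27.0% 5mC in WT and 65.4% in KO (p = 0.00414, q = 1 in the authors' deposited table). A further 5mC site 286 bp after the start went the other way, 14.0% and 0%, and a 5hmC site 281 bp before the start was at 0% and 27.0% in the authors' deposited table. The listed CpGs around this start thus differed in both directions. The capital CpGs of Cntn4, 135 and 128 bp before that start and 42 and 49 bp after a second annotated start, were at 42.1% and 40% 5hmC in WT and 0% in KO (in the authors' deposited table, p = 0.00452 and p = 0.00563), with no listed 5mC site there. Further sites within 2 kb of a start that has a window were listed for Nlgn1, Cntn5, Rbfox3 and Dlgap1. Gene ends without a window are not covered by this. Among them, Ntm, on the minus strand, had 5hmC sites 41 and 39 bp inside its 5′ end. These were at 38.9% and 43.8% in WT and 0% in KO in the authors' deposited table. The Nrxn3 position outside the gene body, named above, also had no window. After an annotated Dlgap1 start, 2 5mC sites were at 12.5% and 37.3% in WT and 0% and 11.6% in KO in the authors' deposited table.

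Genes related to the members by family or complex were denser in sites and alike in direction. Of 53 such genes, 46 had sites for 5mC and 48 for 5hmC. They carried 1.73 and 2.35 sites per 100 kb pooled, but are shorter, with 17276.1 kb in all and 13 genes of at least 500 kb. Of their sites, 108 of 303 5mC (35.6%) and 267 of 411 5hmC (65.0%) were higher in the knockout. Among them Pcdh15, a protocadherin gene named after its values were seen, had 18 of 19 5mC sites lower. Among 24 long genes that are widely expressed or active in blood, 22 had sites for 5mC and 24 for 5hmC, at 1.58 and 2.47 per 100 kb pooled, and 69 of 195 (35.4%) and 197 of 305 (64.6%) sites were higher. Prdm16 and Msi2, stem cell regulators, were the densest of these, with 12.3 and 12.8 5hmC sites per 100 kb, still below the 16.2 of Rbfox3. Of 8 LSK and stem cell genes, 6 held a 5mC and 7 a 5hmC site. All 4 neuron genes, Rbfox3 among them, held sites of both marks, and 3 and 4 of the 4 muscle genes did. Of all protein-coding genes, 47.1% and 53.7% held a site. Pooled, the LSK genes carried 3.62 5mC and 7.24 5hmC sites per 100 kb and the neuron genes 4.04 and 5.825. Rbfox3 held 39 of the 52 5mC and 69 of the 75 5hmC sites of the neuron genes. The muscle genes carried 9.90 and 19.8 per 100 kb, from only 4 and 8 sites.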

How the data were processed

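Whole-genome bisulfite and oxidative bisulfite libraries of LSK DNA were made with sonication, methylated adapters, lambda control DNA and a commercial conversion kit, per the labels' protocols. The authors deposited 1 table per mark with levels as fractions from 0 to 1, printed here as percent, with their signed difference (a score of knockout minus wild type, matched within 0.0001) and p-values and q-values, per the file headers. The sources used here name no aligner, caller, test, coverage or conversion rate. Depth and precision per level are therefore unknown. Each listed p is at most 0.01 and each difference at least 10 points. The submitters' processing notes name GRCm39. All 412 5mC and 778 5hmC positions inside RefSeq promoter windows of GRCm38.p6 fell on the C of a CpG, and none did when shifted by 1 base, so positions were read as GRCm38.

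Gene bodies came from the RefSeq GRCm38.p6 gene table, extended by 2 kb. It gives no exons, so introns, exons and UTRs were not separated. Counts, densities per 100 kb, medians and exact (Clopper-Pearson) 95% binomial intervals were computed with Python 3.11.15, pandas 2.3.3 and scipy 1.17.1, and the counting was tested on simulated data. Interval bounds on a density ratio came from the binomial share of sites. A run was at least 3 sites with gaps of at most 1000 bp. Sites named were those with q under 0.05, the 10 smallest p per table and direction, both-table positions, end sites (up to 8 per table) and runs; others named were chosen after their values were seen. The members and gene lists were chosen with earlier results of these data known. Alternatives covered the flank, difference, p and q thresholds, exact 0% or 100% levels, adjacent positions, the densest member, member length and the comparison genes.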

Additional observations from a re-analysis of the deposited data

How the results depend on the processing

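With 1 library per group there is no replicate to leave out. No paired analysis was possible because the groups compared share only 1 replicate number and no test was made. Of 67 alternative values, 43 stayed within their limits (a factor of 1.5 for counts, the 95% interval for shares and ratios), 20 moved beyond them and 4 changed side. No flank and a 10 kb flank moved none. Merging of adjacent positions left every value as it was. Positions that each fall on the C of a CpG cannot be adjacent, so merging could not move a value. Its values are counted among the 43 but are no check.

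With a difference of at least 25 points, 34.5% of 5mC and 70.3% of 5hmC sites were higher. With p under 0.001, 65 5mC and 60 5hmC sites remained, of which 58.5% and 75% were higher, with density ratios of 1.18 and 0.548 to other long genes. The Dmd run holds 17 of those 65 5mC sites, and without it 43.8% of 48 were higher and the ratio was 0.870. With q under 0.05, 8 5mC and 2 5hmC sites remained, at ratios of 13.92 (interval 2.78 to 134.6) and 0.29 (interval 0.0332 to 1.17). The 5hmC interval includes 1. The 5mC ratio sets 8 sites against only 2 in the other long genes, and 7 of the 8 lie in the Dmd run. Without that run 1 member 5mC site had q under 0.05. Of the 8 5mC sites and of the 2 5hmC sites, 100% were higher, beside 36.6% and 60.6% of all listed sites with q under 0.05. Leaving out levels of exactly 0% or 100% left 245 5mC and 64 5hmC sites, with 71.9% of the latter higher. The 5hmC ratio was 0.592 without Rbfox3, 0.596 for members of at least 500 kb and 0.60 as a ratio of medians. Against all other protein-coding genes the ratios were 0.459 for 5mC and 0.301 for 5hmC. Leaving out the Dmd run (36.97% of 5mC sites higher) and leaving out Rbfox3 with Csmd2 (ratios 0.714 and 0.546) were chosen after seeing the data. Coverage, which is not stated, limits every single level.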
